A study of Canis lupus familiaris with 7 samples.

Results

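The cytosolic ribosomal proteins of the dog left ventricle were followed through 116 probe sets of an Affymetrix canine expression array, each probe set being a group of short probes aimed at 1 transcript. Members were all probe sets whose single gene symbol in the platform annotation begins with RPL or RPS followed by a digit, or with RPLP, leaving out the S6 kinases and symbols ending in L1. They carry 56 gene symbols, 69 probe sets of 34 large subunit genes and 47 probe sets of 22 small subunit genes, among 43035 probe sets on the array. The rule uses symbols and no measured value, but it was proposed with earlier results of these data known. A further 73 probe sets list such a symbol among several genes and were not members. Of 77 protein-coding genes in the RefSeq gene table of a dog assembly whose symbols meet the same rule, 56 had a member probe set and 21 had none, among them RPL3, RPL11 and RPS6. RPS19BP1 meets the rule by its symbol although it encodes a partner of ribosomal protein S19 that regulates the deacetylase SIRT1, and not a subunit of the ribosome.

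A cytosolic ribosome is built from a small subunit, which reads the messenger RNA, and a large subunit, which forms the peptide bond. The proteins are made in near equal numbers, carried to the nucleolus and assembled on ribosomal RNA, so their messenger RNAs are among the most abundant of most cells. Many of these messenger RNAs begin with a run of pyrimidines through which the kinase mTOR sets their translation, which means that their amount and their use by the ribosome can be regulated apart. In the heart, ribosome production goes with muscle growth, and striated muscle has a large subunit paralog of its own, RPL3L, in place of part of its RPL3.

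The study compared left ventricles of adult male mongrel dogs on a low-salt diet, which contained 0.5% sodium chloride and was given for 2 weeks, with those of control male dogs. Total RNA from 3 control hearts (numbered 1, 3 and 4) and 4 low-salt hearts (numbered 1 to 4) was hybridised, 1 array per sample. The sources used here give neither the salt content nor the duration of the control diet. They name 10 dogs on the diet without relating them to the 4 low-salt arrays, so whether RNA was pooled is not known here. The comparison asks how low dietary salt bears on gene expression in the heart.

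Signals were compared as log2(signal + 16) after quantile normalization, called the level below, and a change is the low-salt mean minus the control mean of that level. All 12 measured cardiomyocyte markers of a list of 13 were tested, with a median level of 13.3. Levels correlated between pairs of arrays with r of 0.888 to 0.953 over tested probe sets, and no array was a copy of another. Of 28616 tested probe sets, 99 passed an adjusted p of 0.05 in limma (0.346%). An unadjusted p under 0.05 was reached by 11% (5.27% higher and 5.78% lower in low salt), and by 4.4% together with a 2-fold change. The groups did not overlap at 10.8% of tested probe sets. Of the members, 107 were bright enough to be tested, 63 large and 44 small subunit probe sets from 55 genes, and RPL37A was left without a tested probe set.

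Ribosomal protein transcripts of both subunits lay at nearly the same level in low-salt and control ventricles after quantile normalization. The median change was 0.01 over the 63 large subunit probe sets and -0.01 over the 44 small subunit probe sets, beside 0.04 over all tested probe sets, and 0.48 and 0.46 beside 0.26 when array medians were set equal instead. None of the 107 passed the adjusted p in limma, and the lowest adjusted p was 0.126. At an unadjusted p under 0.05, 8 members passed (7.48%), 5 higher and 3 lower in low salt, and the methods' t-test at that threshold gave 5 higher and 4 lower, none of them after Benjamini-Hochberg adjustment. Large subunit probe sets gave 3 of these 8 (4.76% of 63) and small subunit probe sets 5 (11.4% of 44), beside 11% of all tested probe sets. Without RPS19BP1 the small subunit gave 4 of 42 (9.52%). Complete separation of the groups was seen at 13 members (12.1%), 7 higher and 6 lower, a share near that of the whole array. The counts at an unadjusted p rest on single arrays in part. Without low-salt sample 3, 8 members were lower, and without low-salt sample 1 or 4, 2 were higher. The difference between the subunits was not tested.

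With 1 value per gene, that of the probe set with the highest mean level, the quartiles of the 55 genes were -0.05 and 0.10, with a median of 0.03. The change was under 0.2 either way in 43 of the 55 genes. The 95% interval of the change lay inside a 1.5-fold difference for 43 genes and inside a 2-fold difference for 50. At these genes the array therefore leaves room for small differences, and the width of each interval is what 3 against 4 arrays allow. In bulk tissue, fewer cells of a type and less RNA per cell cannot be told apart.

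**Figure D1:**
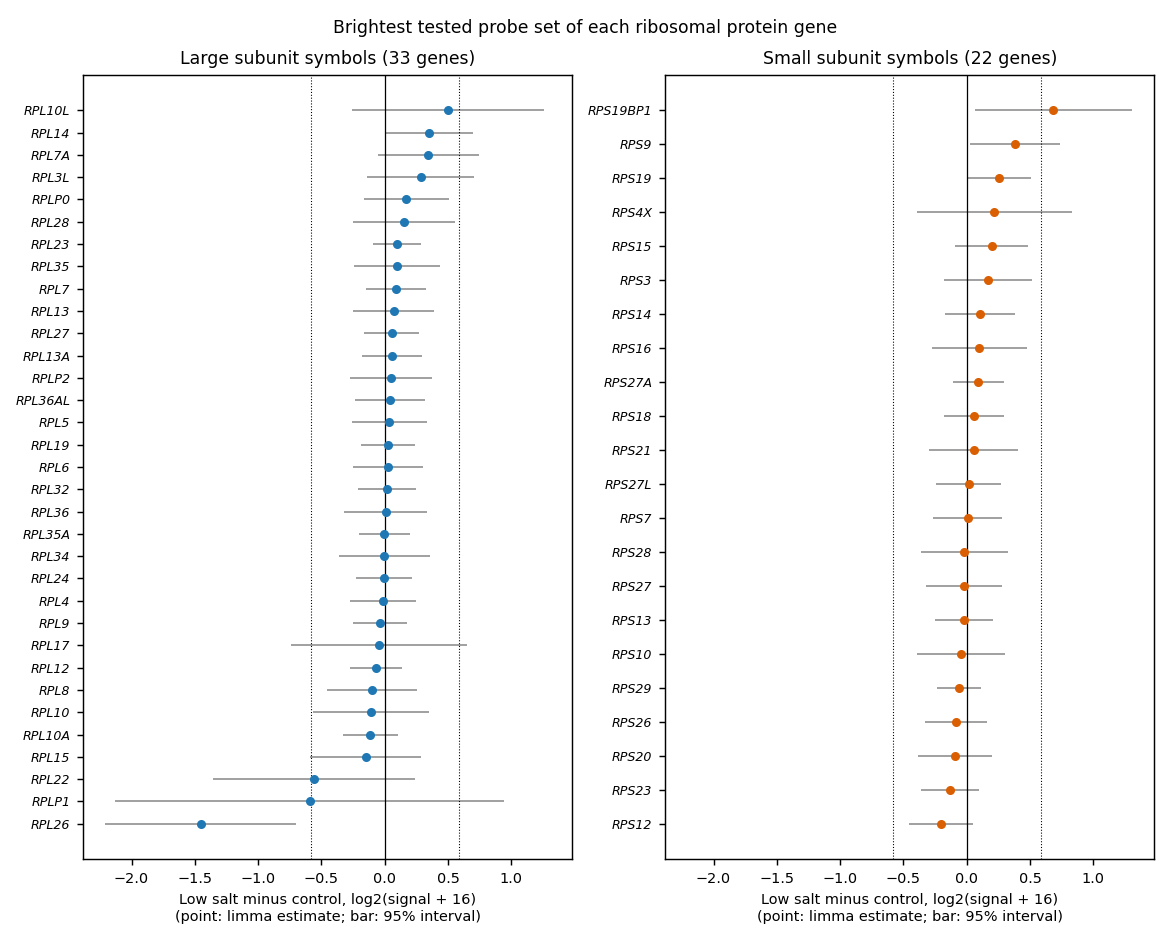
Low salt minus control on the log2(signal + 16) scale for the brightest tested probe set of each gene, 33 large subunit genes on the left and 22 small subunit genes on the right. Points are limma estimates from 3 control and 4 low-salt arrays, bars are 95% intervals and dotted lines mark a 1.5-fold difference; 43 of the 55 bars stay inside those lines, and RPL26 lies farthest from 0 at -1.46.

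Ribosomal protein levels varied from array to array within both groups. For the 47 genes whose brightest probe set had a mean level of at least 10, a limit chosen after the values were seen (probe sets under it are called dim below), each array was set against the gene's own mean over 7 arrays. The median deviation was -0.03, 0.07 and -0.09 in controls 1, 3 and 4, and 0.12, -0.06, 0.04 and -0.06 in low-salt samples 1 to 4. In low-salt sample 1 all 47 genes were above their own mean, and in control 3, 38 were. By contrast, only 12 genes in low-salt sample 2 and 13 in control 4 were above it. Which arrays were high depended on the scaling. With array medians set equal, the median deviation was -0.25, 0.22 and -0.82 in controls 1, 3 and 4. In low-salt samples 1 to 4 it was then 0.55, 0.37, -0.51 and 0.36, with all 47 genes above their own mean in sample 2 and 0 in sample 3. Under either scaling both groups held arrays with high and with low ribosomal protein levels, though not always the same arrays.

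The members' share of the summed deposited signal showed the same overlap. It was 2.91%, 3.25% and 2.59% in controls 1, 3 and 4 and 3.24%, 2.86%, 2.74% and 2.78% in low-salt samples 1 to 4. The group means were 2.92% ± 0.332 (SD, n = 3) and 2.91% ± 0.23 (SD, n = 4). Large subunit probe sets made up 1.59% ± 0.177 of the signal in control and 1.6% ± 0.136 in low-salt ventricles. Small subunit probe sets made up 1.33% ± 0.155 and 1.31% ± 0.095. Signal depends on the probes as well as on the transcript, so these shares compare arrays and are not shares of the RNA.

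**Figure D2:**
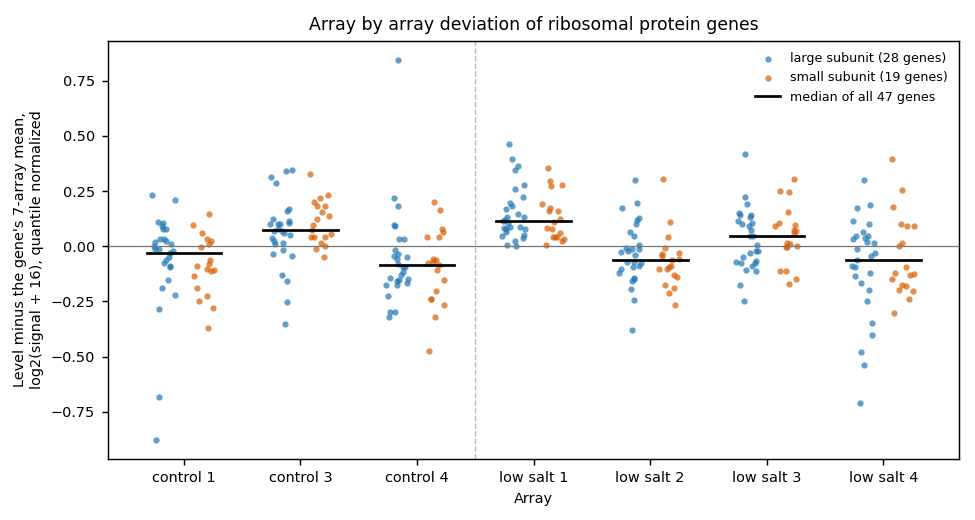
Level of each of 47 ribosomal protein genes minus its own mean over the 7 arrays, by array (brightest probe set, mean level of at least 10, quantile normalized), with 28 large subunit genes in blue, 19 small subunit genes in orange and a bar at the median. The medians run from -0.09 in control 4 to 0.12 in low-salt sample 1, and arrays of both groups lie on either side of 0.

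The lowest adjusted p among members belonged to RPL26, a large subunit protein near the exit of the peptide tunnel (gene number 479496), which is read by 1 probe set. Its deposited signal was 429, 196 and 273 in controls 1, 3 and 4 and 65.8, 61.9, 192 and 49.2 in low-salt samples 1 to 4. Every low-salt array was below every control array, with low-salt sample 3 close to control 3. The mean level was 8.25 ± 0.551 (SD, n = 3) in control and 6.79 ± 0.579 (SD, n = 4) in low salt, a change of -1.46 ± 0.35 (SE) with an adjusted p of 0.126 in limma. Without low-salt sample 3 the adjusted p was 0.0319. No second probe set has RPL26 as its single symbol here, so the agreement between probe sets could not be examined for this gene.

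RPL24, a large subunit protein at the face that joins the small subunit, had the largest change upward, at the dimmer of its probe sets (gene number 478547). That probe set gave signals of 43.1, 33 and 162 in controls 1, 3 and 4 and 210, 207, 185 and 193 in the low-salt samples. The 4 low-salt arrays were tightly grouped and all higher than the controls, among which control 4 stood well above the other 2. Its change was 1.56 ± 0.38 (SE), adjusted p 0.134. Leaving out control 4 gave an adjusted p of 0.0016, array medians set equal 0.0234, and array weights 0.0281. The brighter probe set of RPL24, with signals of 7908 to 14082 in control and 8117 to 12386 in low salt, had a change of -0.01 ± 0.103 (SE).

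RPS14, a small subunit protein whose loss of 1 copy underlies the anaemia of the 5q syndrome, showed the largest change downward, again at a dim probe set (gene number 403690). Signals there were 83.7, 124 and 152 in the controls and 0.588, 18.7, 77.6 and 24.5 in low-salt samples 1 to 4. The low-salt arrays were all lower, by a wide margin in sample 1 and by little in sample 3. This gave a change of -1.54 ± 0.453 (SE), adjusted p 0.244. The other 2 probe sets of RPS14 had changes of 0.10 ± 0.129 (the brightest) and -0.16 ± 0.398 (SE).

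RPS20, a small subunit protein at the head of the subunit (gene number 477887), had a dim probe set at 22.3, 95.4 and 50.4 in the controls and 228, 120, 86.5 and 122 in the low-salt samples. Control 3 lay above low-salt sample 3, so the groups overlapped. The change was 1.38 ± 0.435 (SE), adjusted p 0.285, while the brightest of the 8 probe sets of RPS20 had a change of -0.10 ± 0.136. RPL9 (gene number 479109) had a dim probe set at 128, 97.6 and 139 in the controls and 38.5, 65.3, 91.2 and 31.2 in the low-salt samples, all lower. Its change was -0.69 ± 0.282 (SE), adjusted p 0.394, beside -0.04 ± 0.098 at the brightest probe set of this large subunit gene.

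**Figure D3:**
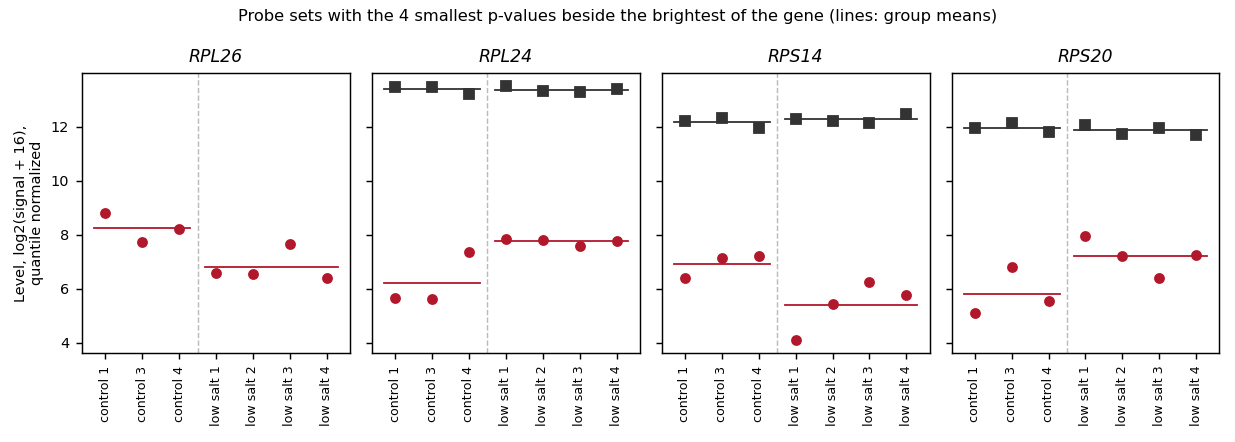
Level, log2(signal + 16) after quantile normalization, on each of the 7 arrays for the members with the 4 smallest p-values (red circles) and, where it is another probe set, for the brightest probe set of the same gene (dark squares), with lines at the group means. Red circles differ by 1.38 to 1.56 between the groups, and the dark squares of RPL24, RPS14 and RPS20 differ by no more than 0.10, rounded.

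The remaining 3 members under an unadjusted p of 0.05 were higher in low salt and belong to the small subunit list. RPS9 (gene number 476387), a protein of the small subunit, had signals of 1098, 1377 and 998 in the controls and 1873, 1472, 1321 and 2043 in low-salt samples 1 to 4. Its change was 0.38 ± 0.166 (SE), adjusted p 0.422, and the groups were apart after normalization but not in the deposited signal, where control 3 lay above low-salt sample 3. RPS19, the gene most often mutated in Diamond-Blackfan anaemia (gene number 476450), had signals of 3625, 4431 and 3123 in the controls and 5227, 4998, 3849 and 5061 in the low-salt samples. Its change was 0.26 ± 0.116 (SE), adjusted p 0.435, and its groups were apart by a narrow margin after normalization and overlapped in the deposited signal. The array maker's identifiers place the RPS9 and RPS19 probe sets under a single cluster number, while the platform annotation names them as separate genes. Probe sets of MYH7, EEF1G and MYL3 share a cluster number too, so the number alone does not show whether transcripts are separate. RPS19BP1, the SIRT1 regulator, had changes of 0.68 ± 0.289 (adjusted p 0.405) and 0.76 ± 0.514 (SE) at its 2 probe sets. Without RPS19BP1, 7 of 105 members passed the unadjusted p.

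Changes of more than 1.5-fold came from probe sets of low signal. Among the 63 members with a mean level of at least 10, which stand for 47 genes, changes ran from -0.44 to 0.38 and 0 reached 1.5-fold, where 2.32% of all tested probe sets in that range did. Of these 63, 2 had an unadjusted p under 0.05 (3.17%, beside 9.87% of all tested probe sets of that level), RPS9 and RPS19. Their 95% intervals lay inside a 2-fold difference in all 63 and inside 1.5-fold in 56, with a median SE of 0.136. Among the 44 members under that level, changes ran from -1.54 to 1.56, with a median SE of 0.361. Of these, 12 reached 1.5-fold, as 21% of all tested probe sets under that level did. An unadjusted p under 0.05 was found in 6 (13.6%), beside 11.1% of all tested probe sets under that level. The offset of 16 also shrinks changes of dim probe sets.

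**Figure D4:**
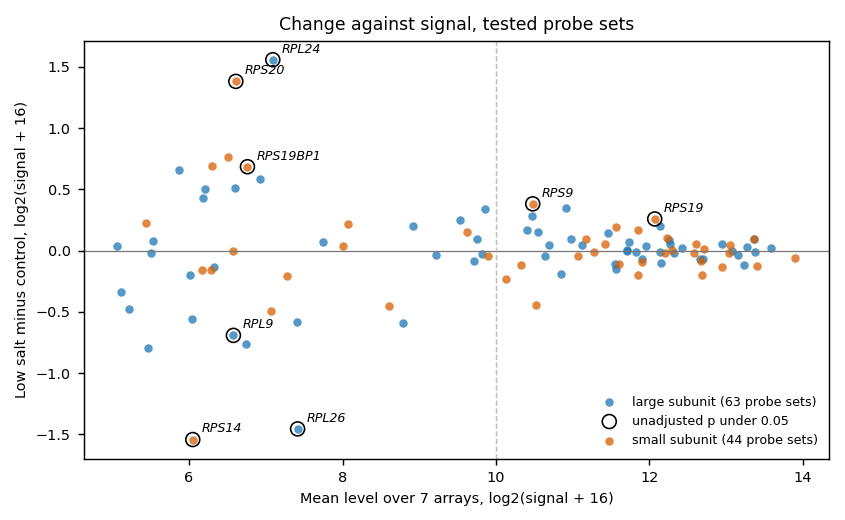
Change, low salt minus control, against mean level over the 7 arrays, both on the log2(signal + 16) scale, for 63 large subunit (blue) and 44 small subunit (orange) probe sets, with rings at an unadjusted limma p under 0.05 and a dashed line at a level of 10. Right of the line all points lie between -0.44 and 0.38, and left of it they spread from -1.54 to 1.56.

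Probe sets of some genes differed widely in their change, while those of others lay close together. Of 26 genes with 2 or more tested probe sets, 12 had all changes of a single sign and 14 had changes within 0.25 of each other. The median spread was 0.15. Each of the 12 genes with a wider spread than 0.25 had a dim probe set, but so did 9 of the 14 others. In the 5 genes whose tested probe sets were all bright the widest spread was 0.13. For 4 genes the spread was over 1, namely RPS14 (1.64), RPS20 (1.61), RPL24 (1.57) and RPL6 (1.22), followed by RPL9 (0.77) and RPL12 (0.73). For the 9 genes with at least 2 probe sets at a level of 10 or more, the median spread between those was 0.10 and the widest 0.39. Probe sets of a gene share its RNA and are not replicates.

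**Figure D5:**
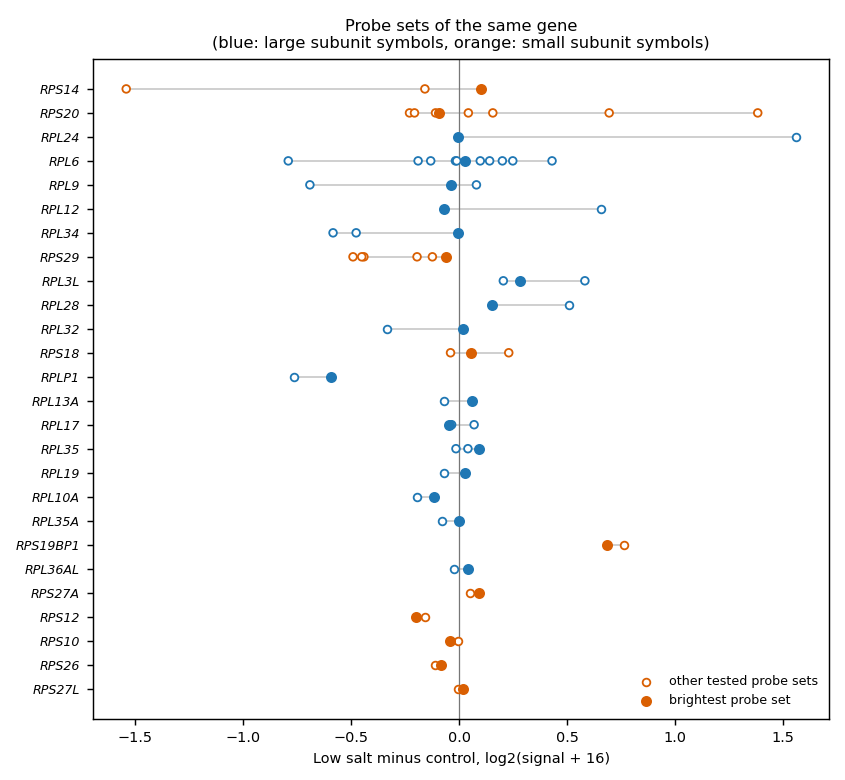
Change, low salt minus control on the log2(signal + 16) scale, of every tested probe set of the 26 genes with at least 2, ordered by spread, with the brightest probe set filled and the others open. Filled points stay near 0 in most genes, and the points farthest out, of RPS14, RPS20 and RPL24, are open.

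RPL6, a large subunit protein of the solvent side, had 11 tested probe sets, the most of any member gene. Their changes ran from -0.79 ± 0.418 to 0.43 ± 0.359 (SE), both at dim probe sets, and the brightest had 0.03 ± 0.13. At 1 bright probe set of RPL6 the low-salt arrays were all higher, with a change of 0.20 ± 0.113. RPS29, a small zinc-binding protein of the small subunit, was the gene whose 6 tested probe sets all had a lower mean in low salt, quantile normalized and as deposited. Their changes ran from -0.06 ± 0.08 at the brightest to -0.49 ± 0.441 (SE) at the dimmest, and the smallest adjusted p was 0.494. Its brightest probe set had signals of 20815, 19292 and 12543 in the controls and 16566, 15833, 11953 and 12514 in the low-salt samples. With array medians set equal, 5 of the 6 turned above 0, to 0.15 at the brightest.

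Agreement over the 7 arrays was also read pair by pair. Pearson's r between 2 probe sets of a gene had a median of 0.50 over 30 pairs from 9 genes where both were at a level of 10 or more. It was 0.25 over 75 pairs with 1 dim and 1 bright probe set, and 0.28 over 30 pairs where both were dim. An r above 0.5 was found in 15 of the bright pairs, 15 of the mixed pairs and 14 of the dim pairs. These values describe probe sets that share arrays and, in part, sequence. By identifier, 43 tested members end in s_at and 26 in x_at, suffixes the array maker gives to probe sets that can read several transcripts, so near-identical copies and pseudogenes may add to their signal. The 33 that end in plain at had a median level of 6.75 in place of 10.8 over all tested members, and held 5 of the 8 members under an unadjusted p of 0.05.

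The acidic stalk of the large subunit, which recruits the elongation factors, was read for RPLP0, RPLP1 and RPLP2. RPLP0, the base of the stalk, had a change of 0.17 ± 0.157 (SE) and RPLP2 0.05 ± 0.15. RPLP1 had signals of 366, 1420 and 296 in the controls and 2240, 137, 228 and 206 in the low-salt samples, so that control 3 and low-salt sample 1 stood far above the rest of their groups. Its changes were -0.59 ± 0.714 and -0.76 ± 0.455 (SE) at the 2 probe sets, and without 1 array at a time the first ranged from -1.40 to 0.08. The 5S particle, which joins the large subunit and holds the p53 regulator MDM2 when ribosome assembly fails, was represented by RPL5 alone, with a change of 0.03 ± 0.137.

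RPL3L, the striated muscle paralog of the protein at the peptidyl transferase centre, had 3 tested probe sets, all with a higher mean in low salt. At its brightest probe set the signals were 825, 1523 and 1318 in the controls and 1635, 1486, 1519 and 1745 in the low-salt samples, with control 1 apart and the other arrays intermixed. From the brightest to the dimmest, the changes were 0.28 ± 0.197, 0.20 ± 0.22 and 0.58 ± 0.309 (SE), with adjusted p of 0.63, 0.774 and 0.519. RPL10, which is among the last proteins to join the large subunit, had -0.11 ± 0.213, and its paralog RPL10L, known from the testis, had 0.50 ± 0.354 at a dim probe set with overlapping groups.

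RPL22, a protein at the outer face of the large subunit, had a change of -0.56 ± 0.372 (SE) at a dim probe set. RPL36AL, whose product is nearly the same as that of RPL36A, had 0.04 ± 0.128 and -0.03 ± 0.171. RPL13A, a large subunit protein often used as a reference gene, had 0.06 ± 0.109 and -0.07 ± 0.151. RPL14 had signals of 1874, 1510 and 1344 in the controls and 2177, 2552, 1695 and 2590 in the low-salt samples, with overlapping groups, a change of 0.35 ± 0.162 and an adjusted p of 0.454. RPL7A had 836, 761 and 691 against 1037, 1434, 853 and 979, higher in all 4 low-salt arrays, with a change of 0.34 ± 0.186 and an adjusted p of 0.53. At RPL23 all low-salt arrays were higher after normalization, by 0.09 ± 0.088, and at RPL12, which sits at the base of the stalk, all were lower, by a change of -0.07 ± 0.097 at its brightest probe set. As deposited the RPL23 change was -0.05, and with array medians set equal the RPL12 change was 0.38. RPL32 and RPL24, the 2 large subunit genes of highest signal, had changes of 0.02 ± 0.108 and -0.01 ± 0.103.

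Among small subunit genes, RPS27A, which encodes the protein fused to ubiquitin, had changes of 0.09 ± 0.095 and 0.05 ± 0.097 (SE). RPS27 had -0.02 ± 0.139 and its p53-responsive paralog RPS27L 0.02 ± 0.119 and -0.01 ± 0.152. RPS18, also in use as a reference, had 0.05 ± 0.11 at the brightest of 3 probe sets. RPS13 had -0.02 ± 0.108. RPS4X, encoded on the X chromosome, had 0.22 ± 0.285, with signals of 221, 289 and 208 in the controls and 280, 295, 173 and 411 in the low-salt samples. RPS12 had 3817, 4324 and 3357 in the controls and 4097, 3868, 3067 and 3521 in the low-salt samples. After normalization its low-salt arrays were all lower, with a change of -0.20 ± 0.117 and an adjusted p of 0.561, and with array medians set equal the change was 0.36.

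The 9 members too dim for the test were probe sets of RPL22, RPL23, RPL34 (2 of them), RPL36AL, RPL37A, RPS19, RPS26 and RPS27. RPL37A, a zinc-binding large subunit protein, had signals of 1.93, 37.2 and 2.87 in the controls and 3.37, 0.556, 19.9 and 7.26 in the low-salt samples, so no level can be given for this gene. Of the 9, the groups were apart at the RPS27 probe set, with a change of -0.74, against -0.02 at its bright probe set.

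The direction of the members as a list depended on how arrays were scaled. The median log2(signal + 16) of the deposited values varied by as much as 0.93 between arrays. As deposited, the median change was 0.04 over tested members and -0.18 over all tested probe sets. With array medians set equal these were 0.47 and 0.26, and 52 of the 55 genes had a change above 0 at their brightest probe set, against 37 as deposited and 32 after quantile normalization. As deposited the members' median lay 0.22 above that of all tested probe sets, and in the quantile-normalized values 0.04 below it. Setting array medians equal shifts the change of every probe set by the same amount, so it leaves that gap of 0.22 as it was and is no separate reading of it. All tested probe sets at a level of 10 or more had medians of 0.01 when quantile normalized, 0.12 with deposited values and 0.55 with equal medians, so bright probe sets in general moved with the scaling. Of all probe sets under an unadjusted p of 0.05, 47.7% were higher in low salt with quantile-normalized values, 19.8% with deposited values and 72.3% with equal medians.

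Genes that make, load or regulate ribosomes were read from lists, at the brightest probe set of each gene, and none of these passed the adjusted p in limma. Ribosomal proteins outside the symbol rule gave 5 of 9, with a median change of 0.01. They include FAU at 0.01 ± 0.124 and RACK1, the scaffold on the small subunit head, at -0.04 ± 0.133. None of the 5 had an unadjusted p under 0.05, and the smallest p belonged to RPL7L1 at 0.48 ± 0.352 and RPL26L1 at 0.24 ± 0.236. Ribosome biogenesis genes gave 37 of 45, with a median of 0.18, 5 higher and 2 lower at an unadjusted p under 0.05, which 11% of all tested probe sets reached (5.27% higher and 5.78% lower). NOP14, needed for the small subunit precursor, had 0.92 ± 0.298 (adjusted p 0.296) and NPM1, the abundant nucleolar chaperone nucleophosmin, 0.67 ± 0.241 (adjusted p 0.342), each with groups that did not overlap. Both probe sets were dim, with control mean levels of 5.97 and 7.86.

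Genes of ribosomal RNA transcription gave 14 of 19, with a median of -0.09 and 2 higher at an unadjusted p under 0.05, beside 5.27% of all tested probe sets. These were POLR1E, a subunit of RNA polymerase I, at 1.25 ± 0.368 (adjusted p 0.247) and MYC, a growth regulator that drives ribosome production, at 1.10 ± 0.377 (adjusted p 0.321). Both probe sets were dim, with control mean levels of 5.54 and 4.61, and that of MYC lay near the lowest level the offset of 16 allows. Elongation factors and other messenger RNAs with a pyrimidine start gave 16 of 21, with a median of 0.00 and 1 higher, NAP1L1 at 0.31 ± 0.141 (adjusted p 0.441), followed by the elongation factor EEF2 at 0.68 ± 0.34 (adjusted p 0.491). Regulators of ribosomal protein translation gave 14 of 18, with a median of 0.21, 1 higher and 1 lower at that threshold. The lower was RPS6KA2, a member of the ribosomal S6 kinase family in the ERK pathway, at -1.33 ± 0.306 (adjusted p 0.107), and the higher EIF4EBP2, which keeps the cap-binding protein eIF4E from its partner eIF4G, at 0.96 ± 0.369 (adjusted p 0.372).

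Cell makeup and RNA quality were set beside these values. The summed deposited signal of the cardiomyocyte markers was 89503 to 138790 in control and 88215 to 117880 in low-salt samples. The summed signals of the endothelial (6269 to 9144 and 6582 to 8760), fibroblast (10295 to 17060 and 11806 to 16221) and macrophage lists (3059 to 5051 and 4072 to 4807) overlapped between the groups too, as did those of the atrial, smooth muscle, neutrophil, lymphocyte, erythroid, adipocyte and skeletal muscle lists. A few bright genes carry these sums, and single markers differed. TNNI2, the fast skeletal troponin I, was lower in all low-salt arrays, at -2.38 ± 0.441 (SE), and was the 1 gene of any list, markers included, past the adjusted p in limma (0.0411). Among markers named after their values were seen, NR2F2 of the atrial list had -0.75 ± 0.221 (adjusted p 0.248), C1QB of the macrophage list 1.01 ± 0.264 (adjusted p 0.165) and CNN1 of the smooth muscle list 1.19 ± 0.349 (adjusted p 0.243), each without overlap of the groups. The TNNI2, NR2F2, C1QB and CNN1 probe sets were all dim, with a control mean level of 4.64 at CNN1. At a bright probe set, ACTN2 of the cardiomyocyte list was lower in all low-salt arrays, at -0.27 ± 0.125 (adjusted p 0.441). TNNI3 of that list had 0.25 ± 0.109 (adjusted p 0.422) with overlapping groups. Of 12 tested cardiomyocyte markers 5 had a change above 0 and 7 below. Of 9 tested macrophage markers 8 had a change above 0. So did 4 of 8 tested smooth muscle, 2 of 4 atrial and 2 of 5 skeletal muscle markers, beside 53.8% of all tested probe sets. The smooth muscle, atrial and skeletal muscle lists were thus mixed in direction, while the macrophage list lay mostly above 0, with a median change of 0.27. The GAPDH control probe sets gave signal ratios of the downstream to the upstream end of the transcript with a higher mean in controls, 2.58 ± 0.178 against 2.27 ± 0.17 for 1 pair and 29.3 ± 10.0 against 17.7 ± 3.46 for the other (SD, n = 3 and 4). Each gave an exact two-sided permutation p of 0.0571, the smallest that 35 splits can give. For actin the ratios were 0.957 ± 0.241 in control against 0.763 ± 0.374 in low salt at 1 pair. At the other they went the opposite way with a wide spread, 1475 ± 1928 against 2357 ± 1559. The actin pairs gave 0.4 and 0.457 in the exact test. The part of cell makeup and RNA quality in the members' values was not tested.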

How the data were processed

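Per the labels' protocols, left ventricular RNA was extracted with Trizol and labelled with biotin for Affymetrix canine arrays. The deposited values are linear intensity per probe set, written by GCOS per the submitters' processing notes. The trimmed mean was 150.04 to 150.05 on every array, so arrays had been scaled to a common mean. From these, log2(intensity + 16) was computed and quantile normalized, because array medians differed by more than 0.25. The 111 control probe sets and the dimmest 1/3 of the other 42924 by mean over all arrays were left out. Low salt was compared with control in limma 3.58.1 (R 4.3.3, lmFit and eBayes with a trend, no covariate, Benjamini-Hochberg over 28616 probe sets). A change has the SE of that fit, and group values are mean ± SD. On simulated data of this size with independent normal noise, 49 of 100 changes of 1 and 94 of 100 changes of 2 (log2) were recovered, with 7 false calls. These changes were placed only at brighter probe sets, while the median level of all tested probe sets was 6.1. The RPL26, RPL24, RPS14 and RPS20 probe sets with changes over 1 were dimmer than any probe set changed in the simulation, so this recovery does not cover them.

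Members and lists were chosen with earlier results of these data known. Symbols came from the platform annotation, and 109 of 116 members matched the RefSeq table (UU_Cfam_GSD_1.0) by gene number. No coordinates are given, since the sources used here name no build. Named members were the 8 higher and 8 lower of smallest p (1 per gene), the 3 brightest genes of each subunit, the 6 genes of widest spread and a fixed set of stalk, paralog and disease genes. From each pathway list, the 2 genes of smallest p were named. FAU, RACK1 and all cell type markers given by name were chosen after their values were seen. Per the series' design text, the authors used a t-test with variance stabilization at p of 0.05 and 2-fold. Alternatives were offsets of 1 and 64, values as deposited, equal medians, other filters, array weights, a replicate block, each array left out, and 1 value per gene. A further alternative was a pooled-variance t-test on the normalized levels, without variance stabilization or a 2-fold limit, so it is not the authors' procedure. Arrays carry no read depth, so their number limits the precision, and p-values rest on the spread within these groups, which may be partly technical.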

Additional observations from a re-analysis of the deposited data

Results flagged for a closer look

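In 3 of 45 named probe sets examined, 1 low-salt array stood apart from the other 3 by more than Dixon's 95% critical value allows, and chance gives this in about 1 of 20 groups. Low-salt sample 3 had an RPL26 level of 7.65 on the log2(signal + 16) scale, above the other 3 at 6.39 to 6.59, and the call for that gene passed the adjusted p without it. The same sample was lowest for RPL36AL, at 11.07 against 11.15 to 11.16 in the others, a small gap in a tight group. Low-salt sample 1 was highest for the brighter RPLP1 probe set, at 11.01 against 7.35 to 7.92.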

How the results depend on the processing

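Over the settings tried, 0 members passed the adjusted p except 1 with array medians set equal, 1 with array weights, and 0 to 1 without 1 array. These were RPL24 (dim probe set) in the first 2 and without control 4, and RPL26 without low-salt sample 3. Control 4 and low-salt sample 3 had the highest median deposited signals, 51.3 and 44.2, beside 19.3 to 39.6 on the other arrays. Over the whole array the count of 99 became 39 with an offset of 1, 165 as deposited, 27 without the filter and 177 with array weights. It was 4 with the pooled-variance t-test. Without 1 array it ran from 21 (without control 1 or low-salt sample 4) to 276 (without control 4). Members lower at an unadjusted p, 3 in all, were 5 as deposited and 2 to 8 without 1 array, the most without low-salt sample 3. Those higher, 5 in all, were 8 with equal medians and 2 to 7 without 1 array, the fewest without low-salt sample 1 or 4. The median change moved with equal medians to 0.477 (large subunit) and 0.457 (small subunit). The causes were not tested.

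Numbers 1, 3 and 4 occur in both groups, and deviations of same-numbered samples from their group means had r of 0.07, -0.26 and -0.18. The highest r of any control with any low-salt sample was 0.43, for control 4 with low-salt sample 3. With so few arrays these values cannot settle whether samples were paired or shared a batch. With the replicate block 27 probe sets and 0 members passed the adjusted p, and the change turned to 0.0146 at RPL24, -0.00141 at RPL32 and 0.0475 at RPS27 (brightest probe sets).

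Of 44 named probe sets, 22 changed sign under at least 1 of 16 settings, and none of these had passed an adjusted p. As deposited, changes turned to 0.0174 (RPL10), -0.0458 (RPL23), -0.184 (RPL32), -0.344 (a dim RPL9 probe set), 0.0258 (RPS20), 0.0609 (RPS27) and -0.0446 (RPS27A). With equal medians they turned to 0.45 (RPL10), 0.378 (RPL12), 0.26 (RPL24), 0.296 (RPL9), 0.357 (RPS12), 0.329 (RPS13), 0.458 and 0.339 (RPS20), 0.493 (RPS27), and 0.148 and 0.128 (RPS29). Without 1 array, the range included the opposite sign for RPL10 (-0.242 to 0.116), RPL13A (-0.00556 to 0.088), RPL24 (-0.102 to 0.0427), RPL32 (-0.0271 to 0.104), RPL5 (-0.0671 to 0.149), RPL6 (-0.106 to 0.125), RPL9 (-0.108 to 0.0278 and -0.205 to 0.216), RPLP1 (-1.4 to 0.0818), RPLP2 (-0.00308 to 0.113), RPS13 (-0.104 to 0.0452), RPS14 (-0.00253 to 0.175), RPS27 (-0.107 to 0.0738) and RPS27L (-0.0894 to 0.119). The number of arrays and the dimness of many probe sets limit what can be seen.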

Other observations

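Levels of bright ribosomal protein genes were correlated over the 7 arrays after removal of each group's mean. Over the 47 genes with a level of at least 10, the median Pearson's r of 1081 pairs was 0.32 and 37.6% of pairs were above 0.5, beside a median of 0.00 and 18.2% over 2371 tested probe sets of that level. Pairs of small subunit genes had a median r of 0.42, pairs of large subunit genes 0.25 and mixed pairs 0.34. These are descriptions over 7 arrays that share their normalization, and some probe sets can read several transcripts.

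RPS7, RPS26, RPS18, RPLP2 and RPS20 followed the mean of the other genes most closely, with r of 0.97, 0.95, 0.95, 0.95 and 0.95. In all, 27 of the 47 had r above 0.5. RPL14, RPL23 and RPLP0 moved the opposite way, with r of -0.67, -0.62 and -0.56, among 7 genes below 0.

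In 3 cases the array maker's identifiers place probe sets of different member genes under 1 cluster number. RPS9 and RPS19, the 2 bright members under an unadjusted p of 0.05, are such a pair, and their levels correlated with r of 0.92 over the 7 arrays. RPS12 and RPS21 correlated with r of -0.02, and RPS15 with the dim RPS27 probe set with r of -0.64.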
